A study of Rattus norvegicus with 2 samples.

Results

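The genes described here encode the proteins of the cytosolic ribosome. They are the 87 genes of both count tables whose symbol is Rpl or Rps followed by a digit, Rplp0, Rplp1, Rplp2 or Rpsa, without the Rps6k kinases, out of 22154 genes listed in either table. Of the 87, 72 are core ribosomal proteins (45 of the large and 27 of the small subunit), 14 are paralogs or copies of a core member, and 1, Rps19bp1, matches by its symbol alone and encodes a protein that binds a ribosomal protein. A further 5 core genes (Rplp1, Rps7, Rps9, Rps13 and Rps26) have no column in either count table and so are not analysed here.

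A ribosome is built from ribosomal RNA and 1 copy of nearly every ribosomal protein, so a cell that makes new ribosomes needs these proteins together. Their mRNAs share a start in which a C is followed by a run of pyrimidines, the 5′ terminal oligopyrimidine (TOP) motif, through which mTOR and the RNA-binding protein Larp1 control their translation. Progenitors of blood cells make many ribosomes, while granulocytes and red cells lose them as they mature.

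The cells were taken from the zygomatic maxillary suture, where the cheek bone meets the upper jaw, of 4-week-old rats. In the distraction group a W-shaped distractor bent from nickel-titanium wire (0.4 mm, starting force 20 g) pulled on the suture for 7 days, and in the sham group holes were drilled without a distractor. Both groups had chloral hydrate anaesthesia and part of the masseter and temporal muscles detached, as the labels describe 1 operation for all. The labels name neither genotype, strain and sex nor how many animals went into each library.

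Single cells were caught on a BD Rhapsody cartridge, and each value is a count of unique molecular identifiers (UMIs), that is of captured mRNA molecules. After filtering there were 4037 distraction cells (31202493 UMIs, median 4161 per cell) and 5183 sham cells (29488955 UMIs, median 3033). The libraries shared 22 bead barcodes, which were kept as separate cells. Cells were sorted into gates by marker genes, none of which is a ribosomal protein gene, and a gate is a range of marker levels and not a proven cell type. Most gated cells were of blood and marrow types: the fibroblast gate, defined by Dcn, Lum, Pdgfra, Dpt and collagen genes, held 60 distraction and 27 sham cells. Cells with too few markers or with markers of more than 1 type made up 22.1% and 24.1% of the libraries and were left out of the gates. Since each group is a single library, the differences are given without a test. The 95% intervals cover counting error only, and the spread given over cells is not a spread over animals.

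Counts of single members were uneven. Summed over both deposited libraries, among the members with most UMIs were Rpl10, with 203667, Rpl37a with 156038, Rplp0 with 155877 and Rps9l1 with 146022. Of the core members, 63 had over 1000 UMIs and 9 had fewer, together 911. Among these 9 were Rps19, the gene most often mutated in Diamond-Blackfan anaemia, with 13 UMIs, Rps6 with 80, Rpl8 with 94 and Rpl39 with 5. Rps6 and Rpl8 are needed in every ribosome, so their counts cannot be read as expression levels, and the cause was not tested. The column Rps9l1 cannot be assigned to 1 gene. RefSeq gives that symbol to a gene on the X chromosome and also lists it as a synonym of Rps9, which has no column of its own. The fewest UMIs were those of Rpl39l (4), Rpl39 (5), Rps15al4 (6), Rps19 (13) and Rpl10l (17).

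The start sites are shown for some of the members followed below, because the TOP motif is what these mRNAs are known to have in common. RefSeq promoter entries of build GRCr8, which is not the build of the counts, were found for 67 of the 87 members. Each line gives 30 bases, of which the eleventh is the annotated first base of the transcript, and capitals mark a C followed by at least 4 bases that are each C or T and starting within 5 bases of that position. Among members not shown, Rps9l1 has such a run 5 bases before the first base and none at it. The lines were chosen, so the share of them with a run is not that of all members. The first 5 lines hold such a run at the first base and the last 4 hold none there.
Rpl10: gtgggagcgtCTCTTTTCCTCTggcgcggt
Rplp0: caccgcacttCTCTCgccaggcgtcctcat
Rps27: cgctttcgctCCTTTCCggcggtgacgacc
Rpl22: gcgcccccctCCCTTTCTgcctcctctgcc
Rpl9: aggacgttctCTCTTTgccccatctactgc
Rpl3: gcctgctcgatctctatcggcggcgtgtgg
Rpl3l: ctggtgcctggtggggaggtcccttcctaa
Rpl22l1: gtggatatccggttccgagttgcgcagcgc
Rpl26: gtcaacttacagaaccggaagtcgcatgta
The windows are, in the same order, chrX:157205840-157205869 (plus strand), chr12:46718371-46718400 (minus), chr2:177964587-177964616 (minus), chr5:168117951-168117980 (plus), chr14:43247580-43247609 (plus), chr7:113507971-113508000 (minus), chr10:14258436-14258465 (plus), chr2:113683186-113683215 (plus) and chr10:54109682-54109711 (plus). A C with 4 pyrimidines after it stood exactly at the first base in 21 of the 67 members (31.3%), against 3.11% of all 27457 symbols in the table. All 21 were core members, of 57 with an entry, and none of the 9 paralogs or copies with an entry had it. Within 5 bases of the first base the motif was found in 38 of the 67 (56.7%) against 19.0% of all symbols, and on the opposite strand of the same stretch in 7 (10.4%) against 22.7%. The strings searched were C followed by 4 bases each C or T, read in the direction of the gene. A missing match says only that these letters are not in this window.

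Ribosomal protein genes took up 7.30% of the UMIs of the distraction library and 7.54% of those of the sham library, and the gates differed far more than the libraries. B-gated cells, mostly B-cell precursors, had 9.62% (1115 cells) in the distraction and 8.72% (2513 cells) in the sham library. Granulocyte progenitors, gated by the primary granule genes Mpo, Elane, Prtn3 and Ctsg among others, had 9.43% (119 cells) and 9.79% (76 cells). The 17 and 13 dendritic-gated cells had 11.8% and 9.82%. B-cell marker genes stood in them at 41.7% and 11.2% of their library level, against 2.95% and 3.70% in monocyte-gated cells. The part of this in the dendritic share was not tested.

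Monocyte-gated cells had 7.64% (227 cells) and 7.44% (222 cells), and endothelial-gated cells 6.80% (22 cells) and 5.71% (18 cells). Fibroblast-gated cells, whose markers include collagen genes, stood at 5.15% and 4.91%. Macrophage-gated cells, with the complement genes C1qa, C1qb and C1qc, had 2.54% (27 cells) and 2.71% (25 cells). The lowest level was that of neutrophil-gated cells, with 1.52% (1091 cells) and 1.63% (690 cells), so the B-gated share was 6.32 times (6.27 to 6.36) and 5.36 times (5.31 to 5.40) the neutrophil-gated one. The small gates of mast cells and basophils (7.30% in 16 cells and 4.03% in 13) and of megakaryocytes and platelets (9.40% in 17 cells and 6.48% in 11) differed most between the libraries.

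Single cells spread widely within a gate. The interquartile range over cells ran from 7.55% to 10.4% in B-gated distraction cells and overlapped that of monocytes (5.67% to 8.26%). In neutrophil-gated cells it ended at 1.49% and 1.62%, below the start of that of macrophage-gated cells (2.12% and 2.06%). The macrophage range ended at 3.41% and 3.36%, below the start of the fibroblast range (4.24% and 3.83%). Erythroid-gated cells had a summed share of 7.33% and 6.67% but a median over cells of 1.69% and 1.42%, since the gate spans the stages described below. In neutrophil-gated cells the calprotectin genes S100a8 and S100a9 took up 16.4% and 13.9% of the UMIs. In a share, less mRNA of 1 group and more of another cannot be told apart.

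**Figure D1:**
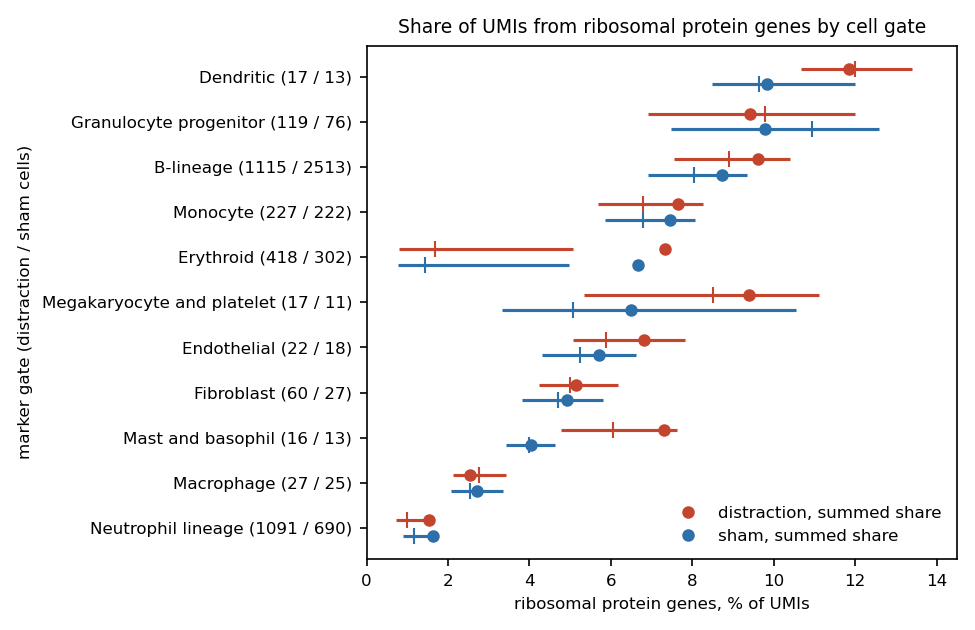
Percent of UMIs from the 87 ribosomal protein genes (x axis) in 11 marker gates (y axis, with distraction and sham cell numbers); dots are summed shares, ticks the median over cells and lines the interquartile range over cells. Neutrophil-gated cells lie lowest, at 1.52% and 1.63%, and dendritic, granulocyte progenitor and B-gated cells highest.

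The share fell along the neutrophil lineage in both libraries. Cells gated by Mpo, Elane, Prtn3 and Ctsg as progenitors had 11.1% in the distraction (79 cells) and 10.9% in the sham library (58 cells). The stage with defensin genes had 4.34% (109 cells) and 3.04% (68 cells), and the stage with the secondary granule genes Ngp and Lcn2 had 1.64% and 1.83%. Cells with the gelatinase granule genes Mmp8 and Mmp9 had 0.959% and 1.14%, and mature cells, with Cxcr2, Il1r2 and Csf3r, 0.869% (316 cells) and 1.06% (177 cells). Progenitors thus stood 12.8 times (12.5 to 13.1) and 10.3 times (10.0 to 10.6) above mature cells. Per cell, the median number of ribosomal protein UMIs went from 3503 to 17 and from 2414 to 24.

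Depth and mitochondrial share moved with these stages. Median UMIs per cell went from 33262 in progenitors to 2526.5 in mature distraction cells, and the median mitochondrial share from 8.93% to 2.26%; their part in the result was not tested. With cells thinned to 1500 UMIs the shares were 11.2% and 0.766% in the distraction and 11.6% and 0.991% in the sham library. Cells under 1500 UMIs were left out, 4 and 10 progenitors and 8 and 3 mature cells. Thinning leaves the expected share of each cell unchanged and weighs cells equally, so it cannot show the part of depth. Some of what is counted in mature neutrophils may be free RNA: B-cell marker genes stood there at 4.92% and 6.82% of their level in the whole library. Ribosomal protein mRNA at that fraction of its library level would make up 0.359% and 0.515% of UMIs, below the 0.869% and 1.06% measured.

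Erythroid cells showed a fall of like direction. The early gate, with Kit, Klf1, Tfrc and carbonic anhydrase genes, had 10.3% (167 cells) and 9.97% (107 cells), the gate with the red cell membrane genes Sptb, Slc4a1 and Epb42 had 2.44% (64 cells) and 1.96% (82 cells), and the late gate, with Alox15, Bnip3l and Hbb, had 1.30% (187 cells) and 1.31% (113 cells). Early stood 7.94 times (7.77 to 8.10) and 7.59 times (7.39 to 7.80) above late. The size of this ratio depended on the denominator and the gate: it was 4.38 and 4.06 with mitochondrial and haemoglobin genes left out of the total, 3.62 and 3.29 without the 20 most abundant other genes, and 18.6 and 17.4 with a stricter gate. Many cells lay near the cuts between these stages, 34 of 64 in the distraction and 46 of 82 in the sham membrane-building gate. Late erythroid cells held B-cell markers at 3.8% and 5.50% of their library level.

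B-gated cells kept their share almost level. Cycling cells, gated by genes of S phase and mitosis, had 9.71% (380 cells) and 8.97% (685 cells), resting pre-B cells with Rag1 and Rag2 had 9.69% (532) and 8.56% (1236), and immature and mature B cells with Ms4a1, Cd22 and Cd74 had 8.36% (155) and 7.86% (445). Cycling cells stood 1.16 times (1.15 to 1.18) and 1.14 times (1.13 to 1.15) above immature and mature ones. Per cell the difference was larger, with a median of 777.5 against 188 ribosomal protein UMIs in the distraction library and 625 against 169 in the sham library, but other UMIs differed as well (7616 against 2189, and 7016 against 2109).

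**Figure D2:**
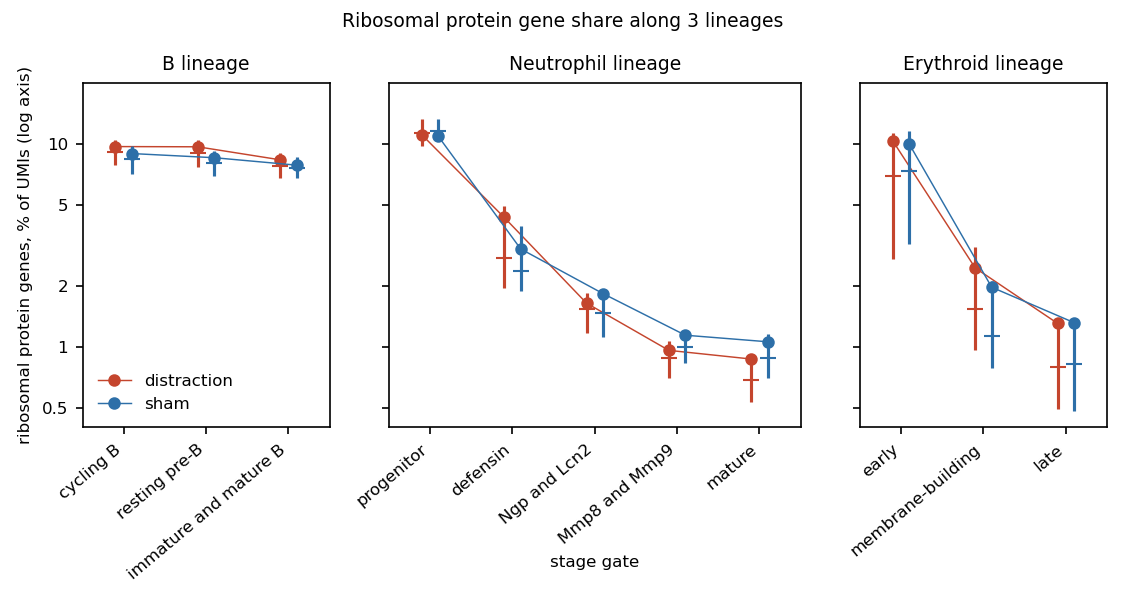
Percent of UMIs from ribosomal protein genes (y axis, log scale) by stage gate (x axis) in 3 lineages; dots are summed shares joined by thin lines, bars the median over cells and thick lines the interquartile range over cells. The neutrophil share goes from 11.1% and 10.9% to 0.869% and 1.06%, the erythroid share from 10.3% and 9.97% to 1.30% and 1.31%, and the B share stays between 7.86% and 9.71%.

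Gene by gene, a difference was called when summed UMIs per 1e6 differed by at least 1.5 times and the counting interval lay on 1 side of 1, among genes with 30 counts. In the distraction library 72 of 73 members tested were called lower in mature than in progenitor neutrophils, where 60.3% of all 6677 genes were, and 0 higher, where 19.4% were. In the sham library it was 70 of 71, against 57.5% of all genes, and 0 higher against 20.3%. The median log2 ratio of the members was -4.20 and -3.87, against -1.58 and -1.36 over all genes tested. Late erythroid cells had 71 of 71 and 69 of 69 members lower, against 80.5% and 80.6% of all genes, and 0 higher against 6.56% and 6.97%, with medians of -3.11 and -3.02 against -2.34 and -2.37.

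Between immature and mature B cells and cycling ones, 8 of 73 members were called lower and 1 higher in the distraction library, where 18.8% of all genes were called lower and 15.4% higher. The sham library had 8 of 77 lower and none higher, against 23% and 19.5%. The members' median log2 ratio was -0.27 in both libraries, against -0.12 and -0.07 over all genes. With the lower fold limit tried as an alternative the counts of lower members were 30 of 73 and 25 of 77, where 21.4% and 27.4% of all genes were lower.

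Not all members fell alike, and the departures were similar in both libraries. They are given as each gene's share of the ribosomal protein UMIs, which takes out the fall of the whole group. Over the 67 members with 200 counts in each library, the fall in neutrophils ranged from 2.18-fold to 44.7-fold (median 18.4) and from 1.63-fold to 45.9-fold (median 14.8). On this scale 19 and 21 members departed by more than 1 log2 unit in neutrophils, 2 and 1 in erythroid cells and 0 and 1 in B cells. The log2 departures of the 2 libraries had a Pearson correlation across genes of 0.87 for neutrophils (67 genes), 0.71 for erythroid cells (66 genes) and 0.88 for B cells (69 genes). These genes are not independent replicates.

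Of the 67 members with 200 counts, Rps9l1 fell least in neutrophils. Its level was 3261 UMIs per 1e6 in progenitors, 1909 in the defensin stage, 1677 in the Ngp and Lcn2 stage, 1533 in the Mmp8 and Mmp9 stage and 1498 in mature cells of the distraction library. In the sham library the values were 3327, 1827, 1958, 1864 and 2035. Rps9l1 thus dropped by 2.18-fold (2.05 to 2.31) and 1.63-fold (1.52 to 1.76), and its share of the ribosomal protein UMIs went from 2.94% to 17.2% and from 3.05% to 19.2%. In late erythroid cells the same column did not stay high, with 350 and 362 UMIs per 1e6 after 2598 and 2623 in early ones. Rps9 is a small subunit protein near the mRNA entry site, and whether these reads belong to Rps9 or to the X-linked copy cannot be told apart.

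Rps27, a zinc-finger protein of the small subunit, also stayed higher than most. It stood at 1739 and 1405 UMIs per 1e6 in progenitors and at 395 and 488 in mature neutrophils, and its share of ribosomal protein UMIs went from 1.57% to 4.54% and from 1.29% to 4.62%. Rplp0, the base of the ribosomal stalk on which elongation factors act, went from 3900 and 3983 to 672 and 821 UMIs per 1e6, and from 3.51% to 7.73% and 3.65% to 7.77% of ribosomal protein UMIs. Its stalk partner Rplp2 had only 235 UMIs in all and was not followed. Rpl22l1, a paralog of Rpl22 also known for binding RNA, went from 0.339% to 0.715% and from 0.466% to 0.783%.

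At the other end were genes of both subunits. Rpl4, of the large subunit, had the largest fall in the distraction library, 44.7-fold (30.5 to 68.6), and fell 25.8-fold (17.9 to 38.7) in the sham library. Rps15a, of the small subunit, had the largest in the sham library, 45.9-fold (24.9 to 96.1), and fell 23.8-fold (16.9 to 34.6) in the distraction library. Rps18 fell 19.9-fold and 43.0-fold, with 15 and 4 counts left. The column Rps18l1, classed as a paralog or copy, went from 1328 and 1330 to 45.4 and 38.2 UMIs per 1e6. Whether reads are split between these columns was not tested. Rpl26 went from 546 and 487 UMIs per 1e6 in progenitors to 14.3 and 12.7 in mature neutrophils, with 12 and 6 counts left. Rpl22 went from 2192 and 2105 to 53.8 and 74.3, in contrast to its paralog Rpl22l1 above. Rpl3, which lines the peptidyl transferase centre, went from 2503 and 2527 to 62.2 and 95.5, and Rpl36al from 1209 and 1189 to 29.9 and 40.3. Small subunit members made up 44.4% and 43.9% of ribosomal protein UMIs in progenitors and 52.3% and 53.9% in mature neutrophils. Without the column Rps9l1, an alternative chosen after seeing the data, they made up 42.7% and 42.1% in progenitors and 42.3% (41.1 to 43.6) and 42.9% (41.3 to 44.4) in mature cells, so the difference rests on Rps9l1.

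Late erythroid cells kept more of some members than of others. Rpl41, the shortest ribosomal protein, went from 3051 and 2783 UMIs per 1e6 in early to 679 and 612 in late cells, and from 2.95% to 5.21% and from 2.79% to 4.65% of ribosomal protein UMIs. Rpl24 and Rps16 moved the same way, Rpl24 from 1.08% to 1.79% and from 1.03% to 1.63%. Rps27l, a paralog of Rps27 and a known p53 target, moved the other way, from 0.522% to 0.255% and from 0.451% to 0.143%, with 24 and 8 counts left. Rpl10a went the same way, from 0.368% to 0.17% and from 0.376% to 0.197%. In neutrophils Rpl41 also took a larger share of ribosomal protein UMIs in mature cells (3.91% and 2.75%) than in progenitors (2.34% and 2.02%) and Rpl10a a smaller one, and whether the lineages differ in these genes was not tested.

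In B cells the departures were small. Rpl36al, of the large subunit, stood at 1151 and 1057 UMIs per 1e6 in cycling and at 563 and 482 in immature and mature cells. Rpl36a, whose protein is nearly the same as that of Rpl36al, was called lower too, with 35 and 91 counts in immature and mature cells; reads of these 2 genes may be split by the counting. Rpl3 was lower outside the cycle as well, at 1937 and 1857 in cycling and 1139 and 1119 in immature and mature B cells.

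**Figure D3:**
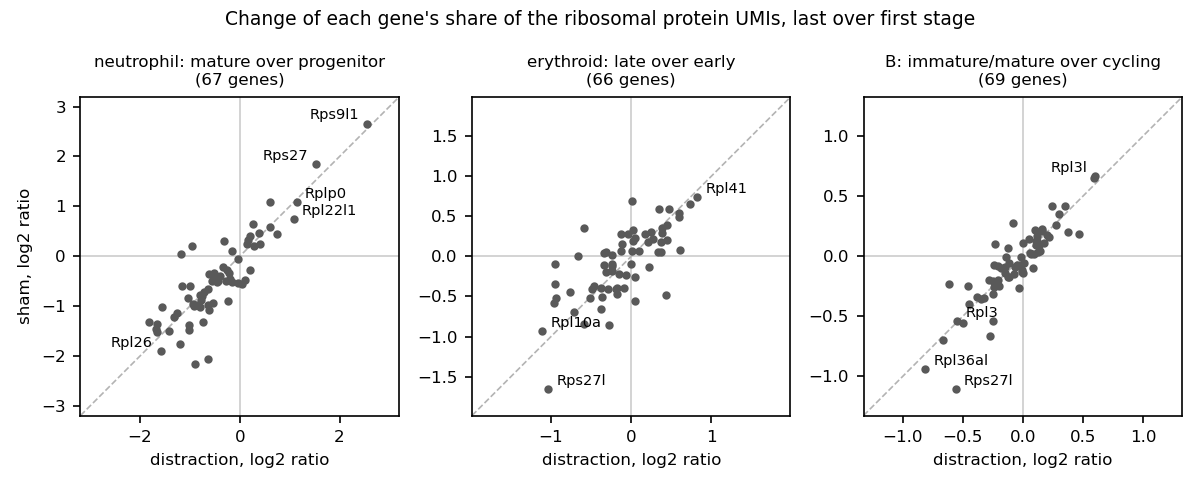
Log2 ratio of each gene's share of the ribosomal protein UMIs, last over first stage, in the distraction (x axis) and sham library (y axis), 1 point per gene with 200 counts in each library; the dashed line marks equal values. Rps9l1 (2.55 and 2.66) and Rps27 (1.53 and 1.84) lie highest in neutrophils, Rpl41 in erythroid cells and Rpl3l in B cells.

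The 3 members listed here for binding Mdm2 fell with the group. Rpl5, Rpl11 and Rpl23 bind Mdm2 when ribosome assembly is disturbed. From progenitor to mature neutrophils Rpl5 went from 1995 and 2271 to 84.9 and 112 UMIs per 1e6, Rpl11 from 1122 and 1098 to 74.1 and 57.3, and Rpl23 from 3060 and 3024 to 293 and 340. Rpsa, which is also a laminin receptor, went from 1770 and 1870 to 80.1 and 89.1. Of 16 members linked to Diamond-Blackfan anaemia, an inherited failure of red cell production, 13 could be followed, and all 13 were called lower in late than in early erythroid cells of both libraries, where 80.5% and 80.6% of all genes were. Their median log2 ratio was -3.23 and -3.02, beside -3.11 and -3.02 over all members tested; Rpl5 was at 1963 and 2051 in early and at 151 and 167 in late cells.

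The paralog Rpl3l had a pattern of its own. In other tissues Rpl3l is known as the form of Rpl3 used by heart and skeletal muscle. B-gated cells held it at 307 (293 to 322) UMIs per 1e6 in the distraction and 347 (336 to 358) in the sham library, with at least 1 UMI in 65.3% of 1115 cells and 64.2% of 2513 cells. Neutrophil-gated cells had 7.36 and 17.0 UMIs per 1e6, with a UMI in 3.02% and 6.23% of cells at a higher median depth (4025 and 3975.5 UMIs against 2991 and 2649). Monocyte-gated cells had 5.33 and 10.7, and erythroid-gated cells 3.97 and 12.6. Of all Rpl3l UMIs, 69.8% and 74.1% were in B-gated cells and 23.4% and 20.8% in unnamed cells, while B-gated cells held 18.5% and 37.3% of all UMIs.

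The level in B-gated cells was 41.7 times (31.0 to 57.4) and 20.4 times (15.8 to 26.7) that of neutrophil-gated ones. B-cell marker genes also differed between these gates, with 5307 against 48.4 and 5650 against 197 UMIs per 1e6, and Rpl3l at the marker fraction of its library level would be at 3.01 and 12.6 in neutrophil-gated cells, beside the 7.36 (5.37 to 9.85) and 17.0 (13.03 to 21.9) measured. In monocyte-gated cells it would be at 2.40 and 6.47, beside intervals of 3.21 to 8.32 and 7.35 to 15.2. Granulocyte progenitors also had intervals above that level (4.44 to 10.3 and 11.6 to 26.5, beside 4.27 and 8.85). In the other non-B gates the interval did not lie above it. Erythroid-gated cells would have 1.997 and 8.54, inside 1.983 to 7.11 and 8.10 to 18.8. Dendritic-gated distraction cells would have 33.99, above their interval (0 to 17.2). Macrophage-gated sham cells would have 26.8, beside 7.77 (0.941 to 28.1) measured. Mast cell and megakaryocyte gates had none in either library; 3 counts would be 16.3 and 26.2 UMIs per 1e6 in the former and 8.01 and 16.8 in the latter. Within the B lineage Rpl3l stood highest in resting pre-B cells, at 555 (518 to 595) and 543 (518 to 569), against 206 and 237 in cycling and 270 and 330 in immature and mature cells.

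The core gene Rpl3 did not share this order. In the same B stages Rpl3 was at 1937 and 1857 (cycling), 1263 and 1106 (resting pre-B) and 1139 and 1119 (immature and mature), and outside B-gated cells Rpl3 was at 2038 and 2198 in granulocyte progenitors and 1461 and 1425 in monocytes. Genes near Rpl3l in the RefSeq order did not share 1 pattern. Ndufb10, a subunit of respiratory complex I, was also higher in B-gated (90.9 and 78.9) than in neutrophil-gated cells (17.2 and 20.4). So was Rps2 (930 and 954 against 102 and 138), which was at 1131 and 1298 in granulocyte progenitors. Msrb1, a selenoprotein gene, was lower in B-gated cells, at 31.1 and 31.6 against 795 and 673. A part of the locus in the level of Rpl3l was not tested. In the correlation with the summed ribosomal protein share over the 22 gate and library groups, given as a description, Rpl3l had the lowest r of the members followed, 0.27, before Rps27l (0.62) and Rpl22l1 (0.74). These points share libraries and depth, so no p is given.

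**Figure D4:**
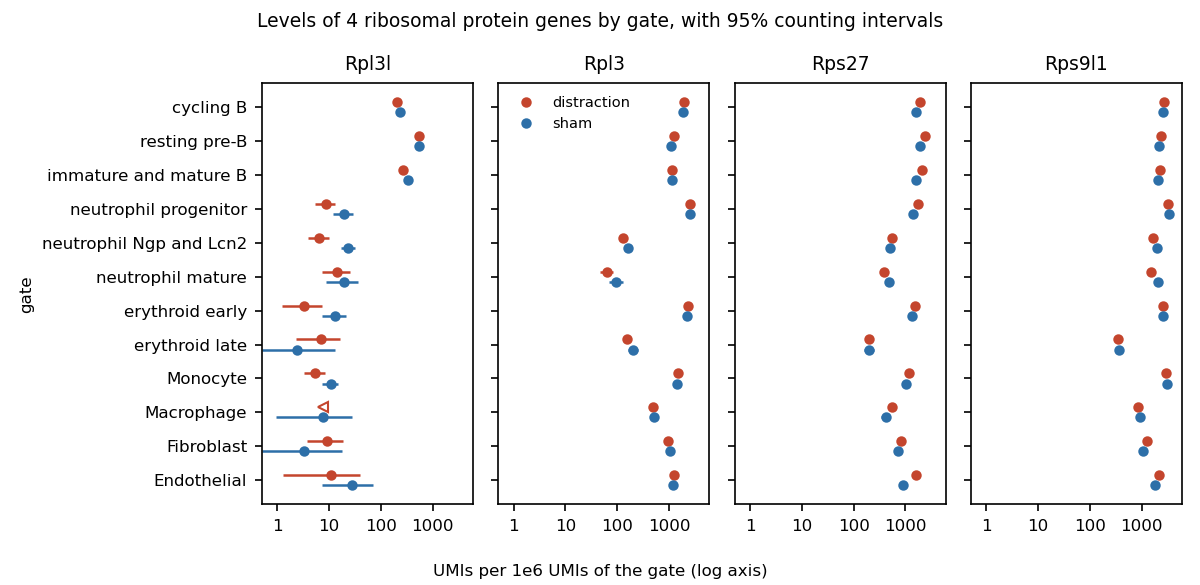
UMIs per 1e6 (x axis, log scale) of Rpl3l, Rpl3, Rps27 and Rps9l1 in several gates (y axis), with counting intervals; an open triangle marks a gate with no count, drawn at the level of 3 counts. Rpl3l lies at 206 or more in the 3 B gates and at 27.2 or less in the other gates drawn, Rpl3 and Rps27 fall in mature neutrophils and late erythroid cells, and Rps9l1 is at 1498 and 2035 in mature neutrophils.

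Other members differed between cell types on the scale of ribosomal protein UMIs. Rpl10, on the X chromosome and a late-joining protein of the large subunit, made up 7.53% and 7.52% of them in monocyte-gated cells (20535 and 16670 counts), 7.05% and 8.83% in the small mast cell and basophil gate and 3.67% and 3.68% in B-gated cells. Rps27l was at 0.660% and 0.645% in macrophage-gated cells, though from 65 and 45 counts, and at 0.136% and 0.129% in B-gated cells. Rpl22l1 was at 0.900% and 0.765% in fibroblast-gated and at 0.813% and 0.932% in neutrophil-gated cells, against 0.535% and 0.561% in B-gated ones. Rps9l1 made up 10.4% and 11.7% in all neutrophil-gated cells against 2.66% and 2.73% in B-gated ones.

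Genes outside the members that work with ribosomes fell in the same stages. Of 29 translation factors and ribosome partners, 28 were tested and 27 (distraction) and 28 (sham) were lower in mature than in progenitor neutrophils, where 60.3% and 57.5% of all genes were. Eef1b2, an exchange factor of elongation, went from 1980 and 1841 to 44.2 and 53.1 UMIs per 1e6, and Rack1, which sits on the small subunit, from 3143 and 3406 to 135 and 163. Of 50 ribosome assembly genes, 45 of 46 and 44 of 45 tested were lower, among them Bop1, from 244 and 173 counts in progenitors to 1 and 3 in mature cells. Mitochondrial ribosomal protein genes had 64 of 66 and 56 of 58 lower, against the same 60.3% and 57.5%.

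Calls among regulators of ribosome production in mature neutrophils were near the background. There 9 of 18 and 7 of 16 tested were lower, where 60.3% and 57.5% of all genes were, and 5 and 4 higher, where 19.4% and 20.3% were. Mxd1, which opposes Myc at shared target sites, rose from 83.7 and 77.6 to 4053 and 3818 UMIs per 1e6. Myc, which drives ribosome production, was at 135 and 177 in progenitors and at 0 in mature cells, where 3 counts would be 3.59 and 6.37. Ddit4, an inhibitor of mTOR, rose from 54.5 and 52.9 to 467 and 454, and Mxi1 from 43.8 and 35.3 to 428 and 484. In late erythroid cells 2 of 20 and 2 of 18 regulators were higher, where 6.56% and 6.97% of all genes were. There 12 and 12 were lower, where 80.5% and 80.6% of all genes were. Mxd1 rose there too, from 206 and 169.5 to 1014 and 793. Between cycling and immature or mature B cells 6 of 20 and 6 of 21 regulators were higher, where 15.4% and 19.5% of all genes were, and 2 and 4 lower, where 18.8% and 23% were. Among the higher were Mxd4 (53.2 and 43.5 to 111 and 109) and Maf1, a repressor of RNA polymerase III (79.9 and 89.6 to 226 and 177). Of 14 genes of ribosome rescue and turnover, 9 of 14 and 10 of 13 tested were lower in late erythroid cells, where 80.5% and 80.6% of all genes were, and 3 and 2 higher, where 6.56% and 6.97% were. Rnf10 of this list, a ubiquitin ligase that acts on small subunit proteins, rose from 345 and 327 to 2592 and 2815. In mature neutrophils 10 and 9 of 12 were lower and 1 and 0 higher.

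Distraction and sham libraries were compared within the 5 types that had at least 50 cells in both. The summed share was 1.10 times (1.10 to 1.11) as high in B-gated distraction cells, 1.10 times (1.09 to 1.11) in erythroid-gated, 1.03 times (1.02 to 1.03) in monocyte-gated, 0.963 times (0.957 to 0.969) in granulocyte progenitor-gated and 0.936 times (0.926 to 0.946) in neutrophil-gated cells. Each of these differences lies well inside the spread over cells. With 1 library each, treatment and library cannot be told apart.

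Few members passed the call. In B-gated cells none of 79 was higher, where 1.4% of all genes were, and 1 was lower, where 2.59% were. Neutrophil-gated cells had 0 of 72 higher (1.77% of all genes) and 2 lower (7.8%), granulocyte progenitors 0 of 74 higher (2.6%) and 3 lower (8.16%), monocyte-gated cells 1 of 75 higher (2.27%) and 2 lower (4.29%), and erythroid-gated cells 1 of 72 higher (2.18%) and 1 lower (4.35%). The genes called were Rpl37 in B-gated and monocyte-gated cells, Rps4y2 in neutrophils and granulocyte progenitors, Rpl22l1 in granulocyte progenitors, Rpl30l1 (higher) in monocytes, Rps19bp1 (higher) in erythroid cells, and Rpl3l in every type but B. Of these only Rpl22l1 had over 200 counts, with 294 against 441 UMIs per 1e6 in granulocyte progenitors. The calls of Rpl3l rest on 11 to 61 counts a library in gates where B-cell markers were lower in distraction cells too (48.4 against 197 UMIs per 1e6 in neutrophil-gated ones), where Rpl3l at the marker fraction would be at 3.01 against 12.6.

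Small differences of single genes repeated across types. Of 66 members with 200 counts in each of the 5 types, 14 were higher in distraction cells in all 5 and 4 lower in all 5. Relative to the group's own ratio in each type, 19 were above it in all 5 and 18 below it in all 5, so the excess of higher genes is not seen on that scale. How many of all genes keep 1 direction in all 5 types is not given here. These counts therefore cannot be called particular to ribosomal protein genes. Rpl9 was highest by median, at 291 against 201 UMIs per 1e6 in B-gated cells, 317 against 234 in granulocyte progenitors, 202 against 155 in monocytes, 307 against 230 in erythroid cells and 52.9 against 49.2 in neutrophils, where the interval of the ratio (0.89 to 1.30) spans 1. Rpl28 was higher by 0.15 to 0.38 and Rps27 by 0.12 to 0.29 on the log2 scale. Rpl13a was lower in all 5, at 235 against 259 in B-gated and 160 against 205 in erythroid cells, and so was Rpl23a, at 89.2 against 115 in neutrophils. These are the same 2 libraries in each type, so the types are no replicates of each other.

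**Figure D5:**
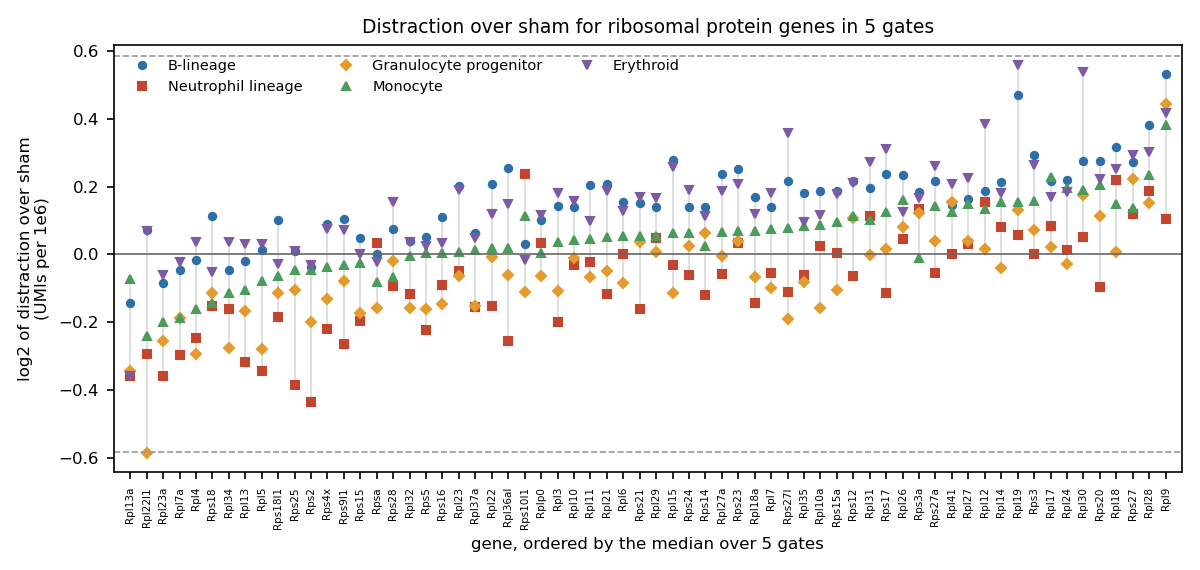
Log2 of distraction over sham in UMIs per 1e6 (y axis) for ribosomal protein genes with 200 counts in each of 5 gates (x axis, ordered by median); symbols are gates, grey lines join the lowest and highest and dashed lines mark the 1.5-fold limit. Rpl9 and Rpl28 are above 0 in all 5 gates and Rpl13a and Rpl23a below 0 in all 5, and nearly all points lie within the limit.

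By stage, the largest difference was in neutrophils with defensin genes, at 4.34% against 3.04%, a ratio of 1.43 (1.41 to 1.45). There 25 of 70 members were called higher, against 7.42% of all genes, and 1 lower, against 4.48%; among the higher were Rplp0 (1739 against 1009 UMIs per 1e6), Rpl14 (328 against 168) and Rpl19 (235 against 126). This stage lies on the steepest part of the fall. Its distraction cells were deeper (median 17763 against 10505.5 UMIs) and held less S100a8 and S100a9 mRNA (6.93% against 8.30%). The part of these points in the result was not tested. The ratio was 1.20 with cells thinned to 1500 UMIs, where 0 distraction and 13 sham cells were too shallow to enter. As a ratio of medians over cells it was 1.16. Later neutrophil stages differed the other way, with ratios of 0.897 (Ngp and Lcn2), 0.842 (Mmp8 and Mmp9) and 0.822 (mature), and the first of these became 1.05 as a ratio of medians over cells. There 5 of 70, 7 of 63 and 6 of 59 members were called lower, against 8.63%, 9.25% and 6.47% of all genes, and 0 higher, against 2.23%, 2.02% and 3.53%. The membrane-building erythroid gate had a ratio of 1.24 (1.20 to 1.29) and 10 of 63 members called higher, against 5.56% of all genes, and 0 lower, against 8.31%, but with the stricter gate its ratio was 10.2, so no size can be given for it.

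The other stages held few calls. Progenitor neutrophils had 0 of 73 members higher (2.79% of all genes) and 1, Rpl3l, lower (5.63%). Cycling B cells had 0 of 78 higher and 0 lower (1.8% and 2.32%), resting pre-B cells 0 of 74 higher and 0 lower (1.6% and 3.23%), and immature and mature B cells 1 of 71 higher and 1 lower (2.34% and 3.48%). The higher gene there was Rpl9, at 249 against 155 UMIs per 1e6, and the lower one Rpl13a, at 129 against 193.5. Early erythroid cells had 0 of 71 higher and 0 lower (1.83% and 4.82%). Late erythroid cells had Rpl15 higher and Rpl27, Rpl29 and Rps25 lower, which is 1 and 3 of 64 (6.56% and 4.25%).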

How the data were processed

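Per the file headers, the deposited values are raw UMI counts per gene and cell, which the authors obtained from BD's WTA Rhapsody Analysis Pipeline, version 1.5.1; the submitters' processing notes name Rnor_6.0 and Seurat 3.6, without their role. No source used here names the annotation. Cells with 500 UMIs, 200 genes and under 25% mitochondrial UMIs were kept; no doublet caller was run.

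A marker counted in a cell at 10% or more of the mean of its 50 highest cells. A gate needed 3 such markers and 1.5 times the marker share of any unrelated type; markers with under 100 UMIs, or found mostly elsewhere, were dropped (the T and NK, mural and osteoclast lists entirely). Stages, which for neutrophils include the granulocyte progenitor gate, were the list with the highest mean level; cycling B cells had 3 cycle genes. These cuts were set on the markers after seeing the data. The members, lists and named genes were chosen with earlier results of these data known. Named were the paralogs, stalk, Mdm2-binding and Diamond-Blackfan genes, the 5 highest and lowest by UMIs, and up to 5 furthest up and down per lineage and type with 200 counts; others were chosen after their values were seen. Some members enter the sums and counts but are not reported here singly.

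Counts were summed per gate and library. Shares have exact Clopper-Pearson and ratios exact conditional binomial 95% intervals; a side at 0 was entered at 3 counts over the gate. The ratio was tested on simulated data. Python 3.11.15, numpy 2.4.6, scipy 1.17.1, pandas 2.3.3 and matplotlib 3.10.9 were used, and 0 columns of other samples were left unused.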

Additional observations from a re-analysis of the deposited data

Results flagged for a closer look

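The ratio of the summed ribosomal protein share, distraction over sham, did not have 1 direction in all gates. It was 1.10 in B-gated, 1.10 in erythroid-gated and 1.03 in monocyte-gated cells, and 0.936 in neutrophil-gated and 0.963 in granulocyte progenitor-gated cells. Along the neutrophil stages it was 1.02 in progenitors and 1.43 in the defensin stage, then 0.897 with Ngp and Lcn2, 0.842 with Mmp8 and Mmp9 and 0.822 in mature cells. Opposite directions put these values here; each rests on 1 library per group, and the differences between gates were not tested.

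Cells removed by the filters also held ribosomal protein counts. They made up 1.80% of the UMIs of the 852 distraction cells left out and 2.62% of those of the 168 sham cells left out, whose median mitochondrial shares were 77.8% and 57.3%.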

How the results depend on the processing

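The neutrophil, erythroid and B stage ratios and the B over neutrophil ratio stayed above 1 under all alternatives run; distraction over sham in granulocyte progenitors and some stages did not keep its side of 1. Values that moved beyond their counting interval, or counts that moved by over 1.5 times, follow (distraction then sham where there is a pair), and the cause was not tested. Genes numbered below as higher or lower are ribosomal protein genes that passed the call, unless another list is named. The share of all genes called under each setting is not given with them, so these numbers allow no comparison with other genes. Without mitochondrial and haemoglobin genes in the total, the ratio was 6.73 and 5.67 (B over neutrophil), 13.7 and 11 (progenitor over mature neutrophil), 4.38 and 4.06 (early over late erythroid) and 1.14 and 1.12 (cycling over mature B), and distraction over sham was 1.11 (B) and 1.12 (erythroid). Here genes higher in distraction numbered 2 (erythroid). Without the 20 most abundant other genes, the ratio was 4.70 and 4.12 (B over neutrophil), 11.5 and 9.22 (progenitor over mature neutrophil), 3.62 and 3.29 (early over late erythroid) and 1.10 and 1.09 (cycling over mature B). Under this setting distraction over sham was 0.970 (neutrophil), 1.03 (granulocyte progenitor), 1.03 (monocyte) and 1.12 (erythroid). With cells thinned to 1500 UMIs, the ratio was 7.79 and 6.11 (B over neutrophil), 14.6 and 11.7 (progenitor over mature neutrophil), 5.81 and 6.89 (early over late erythroid) and 1.13 and 1.09 (cycling over mature B), while distraction over sham was 1.11 (B), 0.868 (neutrophil), 0.941 (granulocyte progenitor), 1.02 (monocyte) and 1.04 (erythroid). With every deposited cell, the ratio was 6.16 and 5.31 (B over neutrophil) and 1.18 (cycling over mature B, distraction). In the same run distraction over sham was 0.949 (neutrophil) and 1.06 (erythroid). As medians over cells, the ratio was 8.89 and 6.94 (B over neutrophil), 16.7 and 13.1 (progenitor over mature neutrophil), 8.74 and 8.95 (early over late erythroid) and 1.18 and 1.10 (cycling over mature B), and distraction over sham was 0.865 (neutrophil), 0.894 (granulocyte progenitor), 1.0 (monocyte) and 1.19 (erythroid). With the stricter gate (4 markers), the ratio was 7.04 and 5.89 (B over neutrophil), 16.0 and 12.1 (progenitor over mature neutrophil) and 18.6 and 17.4 (early over late erythroid). Under this setting distraction over sham was 0.921 (neutrophil), 1.0 (granulocyte progenitor), 1.02 (monocyte) and 1.13 (erythroid). Here genes higher in distraction numbered 2 (erythroid). Here genes lower in distraction numbered 0 (B), 0 (granulocyte progenitor), 0 (monocyte) and 0 (erythroid). With core members alone, the ratio was 6.80 and 5.87 (B over neutrophil), 14.9 and 12.3 (progenitor over mature neutrophil) and 1.13 (cycling over mature B, sham), while distraction over sham was 0.953 (neutrophil). With cells of at least 1500 UMIs, the ratio was 5.44 (B over neutrophil, sham) and 1.15 (cycling over mature B, distraction). In the same run distraction over sham was 1.10 (B), 0.982 (granulocyte progenitor) and 1.04 (monocyte). Here genes higher in distraction numbered 0 (erythroid). At the lower fold limit, genes higher in distraction numbered 4 (B), 1 (granulocyte progenitor), 2 (monocyte) and 7 (erythroid), and genes lower in distraction numbered 2 (B), 7 (neutrophil), 5 (granulocyte progenitor) and 2 (erythroid). Here lower genes in mature against cycling B numbered 30 (distraction) and 25 (sham). Among genes with 200 counts, genes higher in distraction numbered 0 (monocyte) and 0 (erythroid). Under this setting genes lower in distraction numbered 0 (B), 0 (neutrophil), 1 (granulocyte progenitor), 0 (monocyte) and 0 (erythroid). Among genes with 1 count, genes higher in distraction numbered 1 (neutrophil). Per stage, distraction over sham turned to 0.966 (thinned) and 0.984 (medians) in progenitor neutrophils, to 0.909 and 0.941 in early erythroid cells, to 1.05 (medians) with Ngp and Lcn2, and to 1.08 (thinned, 1.02 to 1.14) from 0.992 in late erythroid cells. Mitochondrial ribosomal protein genes called lower in mature neutrophils numbered 10 and 2 among genes with 200 counts, and assembly genes 22 and 12, since fewer were tested. No paired analysis was possible because each group has 1 library. Several limits apply. Counts of low members (under 30 per comparison) gave no call, and 9 core genes had too few counts to follow. No ratio of shares between libraries is given for gates of under 50 cells. Free RNA may make up part of the counts in mature neutrophils and late erythroid cells, and its amount was not measured. Library, animal and treatment cannot be told apart.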
